A study of Mus musculus with 6 samples.

Results

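The supply of methionine, cysteine and glutathione was followed through 10 genes in mouse liver after acetaminophen (APAP) overdose. They were Mat1a, Mat2a, Gnmt, Ahcy and Bhmt of the methionine cycle, Cbs and Cth of transsulfuration, Cdo1 and Csad of cysteine oxidation, and Gss of glutathione synthesis. The members were chosen by name for their place in these pathways, with earlier results of these data known. All 10 were found among the 34745 genes listed and passed the filter on low counts. The livers came from WT mice given saline or APAP at 300 mg/kg, taken 12 h after injection for the APAP group. Per the study's methods the mice were male C57BL/6J animals of 8 to 10 weeks that were fasted for 12 h before injection. RNA from whole liver was sequenced, and counts of 2 APAP libraries (replicates 1 and 3) and 3 saline libraries (the columns named WT1, WT2 and WT3) were compared. No count column was found for APAP replicate 2, so it was not analysed here.

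The methionine cycle makes S-adenosylmethionine (SAM), the methyl donor of the cell, and returns its spent form to homocysteine and methionine. Transsulfuration carries the sulfur of homocysteine into cysteine, which the liver either oxidises to taurine and sulfate or builds into glutathione. Glutathione is known as the thiol that conjugates the reactive metabolite of APAP, and the liver is the main organ for each of these steps.

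The 5 libraries held between 13378445 and 15976339 counts. Levels are given as CPM, the counts of a gene relative to the library total, scaled by TMM factors, and 3 counts, taken as the limit that a count of 0 allows, came to between 0.176 and 0.269 CPM. Values are listed in the order APAP replicates 1 and 3, then WT1, WT2 and WT3. The sources did not say which columns came from which mice, so p-values measure the spread between these libraries only. Ddx3y, which lies on the Y chromosome, had 79.0 and 61.7 CPM after APAP but 0, 0 and 0.067 CPM after saline. Xist, transcribed from the inactive X chromosome of females, was at 0.764 and 1.73 CPM after APAP and at 290, 914 and 882 CPM after saline. The 2 groups therefore differed in sex-linked expression although the methods name male mice, and in every result below treatment and sex-linked expression cannot be told apart. Summed hepatocyte markers (8 genes, among them Alb and Hnf4a) were at 87986 and 140240 CPM after APAP and between 136980 and 192650 CPM after saline. After adjustment 0 of 8 passed, beside 7.23% of all 13734 genes tested. At the study's thresholds of a fold change of at least 1.5 and p under 0.05, 2 (Ttr and Hnf4a) were lower. Over all genes 11.2% were lower at these thresholds. In 4 (Alb, Apob, Ttr and Hnf4a) both APAP libraries lay below every saline library, as in 20.1% of all genes. Fgb lay wholly higher after APAP, at 10378 and 7868 CPM against 4614 to 6593 CPM after saline, and 3 markers overlapped. Over all genes 24.0% lay wholly higher. The median log2 fold change of the 8 markers was -0.51, in the direction of most of the 10 genes. Summed neutrophil markers were at 115.9 and 76.7 CPM after APAP against 5.38 to 8.35 CPM after saline, where Ly6g was at 0. After adjustment 6 of the 7 tested rose, beside 3.70% of all genes. The part of these marker levels in the results was not tested, and in whole liver fewer cells of a type and less RNA per cell cannot be told apart.

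Of the 10 genes 4 fell after APAP at an adjusted p under 0.05 and 0 rose. In the fit over all 13734 genes tested, 3.53% fell and 7.23% changed in either direction. Because the 10 genes were chosen with earlier results of these data known, such shares are background and no test of the set. The 4 genes were Cth, Csad, Gnmt and Cbs. At the thresholds of the study, a fold change of at least 1.5 and p under 0.05, taken as unadjusted, 8 of 10 were lower after APAP, against 11.2% of all genes lower and 23.5% in either direction. In the same 8 genes every APAP library lay below every saline library, as was the case for 20.1% of all genes. A further 24.0% of all genes lay wholly higher after APAP, 44.1% in either direction. Mat2a and Gss overlapped between the groups. The median log2 fold change of the 10 genes was -1.54, beside 0.03 over all genes tested.

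**Figure D1:**
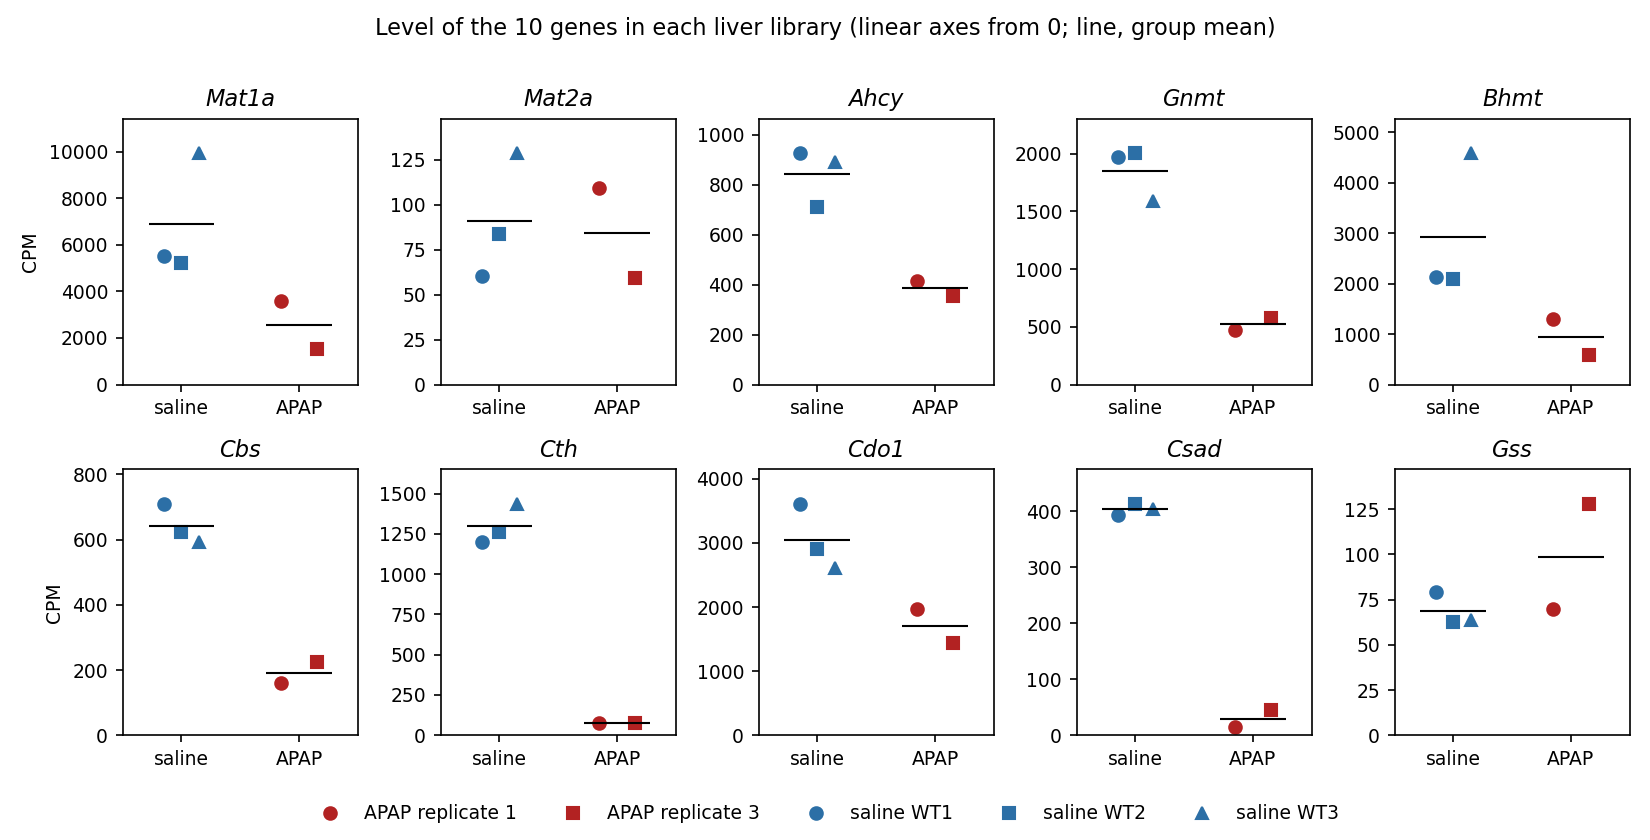
Level of each of the 10 genes in CPM (linear axes from 0) after saline in 3 libraries (blue) and the 2 APAP libraries (red), with a line at each group mean. Relative to saline, Cth and Csad were lowest after APAP (5.76% and 7.37% of the saline mean), and only Mat2a and Gss overlapped between the groups.

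Mat1a encodes the catalytic subunit of the liver forms of methionine adenosyltransferase, which makes SAM from methionine (ENSMUSG00000037798, chr14:41105381-41124412, plus strand, GRCm38). It stood at 3601 and 1533 CPM after APAP and at 5521, 5213 and 9921 CPM after saline. WT3 was far above the other saline libraries, and APAP replicate 3 was the lowest of all. The APAP mean of 2567 CPM was 37.3% of the saline mean of 6885 ± 2634 CPM (SD, n = 3). The log2 fold change of -1.42 (SE 0.53, 95% interval -2.68 to -0.17) did not pass after adjustment (edgeR adjusted p = 0.158). Leaving out APAP replicate 1 moved it to -2.16, and leaving out APAP replicate 3 to -0.94.

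Mat2a encodes the catalytic subunit used by most other tissues (ENSMUSG00000053907, chr6:72432799-72439558, minus strand). Its levels were 109 and 59.0 CPM after APAP and 60.4, 83.5 and 128 CPM after saline. One APAP library lay below all saline libraries and the other lay among them. The log2 fold change was -0.11 (95% interval -1.05 to 0.82, edgeR adjusted p = 0.896), so that a 2-fold fall was within the interval. Its sign turned in 3 alternative settings, namely without APAP replicate 3, without WT3 and without composition scaling. Exons of Mat2a overlap those of Particl on the opposite strand by 508 bases, and Particl held 104 counts over all libraries against 6667 for Mat2a.

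The balance of the 2 forms can be read within a library, where it does not depend on scaling between libraries. Per kilobase of exon, there were 42.7 and 33.6 Mat1a reads for each Mat2a read after APAP, and 118, 80.8 and 99.9 after saline. All APAP libraries had a higher Mat2a share than all saline libraries. The Mat2a to Mat1a ratio was 2.6-fold higher after APAP (log2 difference 1.38, SD 0.24 after APAP and 0.28 after saline). The exact two-sided permutation p was 0.2, which is the smallest that 2 against 3 libraries can give. In all 3 ratios were examined, each with this p, so adjustment leaves it at 0.2.

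Gnmt, glycine N-methyltransferase, spends SAM on glycine and is abundant in liver (ENSMUSG00000002769, chr17:46725664-46729168, minus strand). It was at 469 and 581 CPM after APAP and at 1969, 2003 and 1587 CPM after saline. The libraries of each group lay close together, and the groups were far apart. Gnmt fell 3.53-fold by the means (log2 fold change -1.82, SE 0.30, edgeR adjusted p = 0.0205), with a saline mean of 1853 ± 231 CPM (SD, n = 3) and an APAP mean of 525 ± 79.0 CPM (SD, n = 2). The call was lost when APAP replicate 1, APAP replicate 3 or WT2 was left out (adjusted p = 0.136, 0.0712 and 0.0963), with log2 fold changes between -1.98 and -1.67.

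Ahcy encodes adenosylhomocysteinase, which splits S-adenosylhomocysteine into homocysteine and adenosine (ENSMUSG00000027597, chr2:155059310-155074497, minus strand). Its levels were 414 and 356 CPM after APAP and 925, 712 and 892 CPM after saline. Both APAP libraries were below all saline libraries, whose mean was 2.19 times theirs. The log2 fold change of -1.13 (SE 0.27, 95% interval -1.77 to -0.49) missed the threshold after adjustment (edgeR adjusted p = 0.0546).

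Bhmt encodes the betaine-homocysteine methyltransferase that remakes methionine from homocysteine (ENSMUSG00000074768, chr13:93616891-93637961, minus strand). It was at 1294 and 579.7 CPM after APAP and at 2131, 2086 and 4584 CPM after saline. As for Mat1a, WT3 was highest and APAP replicate 3 lowest. The APAP mean was 31.9% of the saline mean, with a log2 fold change of -1.65 (SE 0.54, 95% interval -2.94 to -0.36, edgeR adjusted p = 0.121). It was -2.34 without APAP replicate 1, -1.18 without APAP replicate 3 and -1.17 without WT3.

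Ahcy and Bhmt share most of their transcript sequence with other annotated genes, so that reads could be divided between copies. Of all 50-base words in the longest coding transcript of Ahcy, 77.0% also occurred in transcripts of other genes, most of all in Gm4737, a single-exon gene on chromosome 16. The longest identical run between the 2 transcripts was 575 bases. The 60 coding bases below (positions 560 to 619 of the Ahcy transcript, GENCODE M21, GRCm38) are shown because they contain the start of that run. Capitals mark the 40 bases inside the run, and the lower case bases precede it.
Ahcy: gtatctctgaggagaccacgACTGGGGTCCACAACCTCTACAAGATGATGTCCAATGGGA

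For each Gm4737 count there were 0.716 and 0.723 Ahcy counts after APAP and 0.705, 0.71 and 0.703 after saline. The division of reads was thus nearly the same in every library. Gm4737 had a log2 fold change of -1.16 (SE 0.28, edgeR adjusted p = 0.0576), close to that of Ahcy. With both summed it was -1.15 (SE 0.30, adjusted p = 0.0681).

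Bhmt shared 61.5% of its 50-base words, with Gm5096 closest. There were 0.805 and 0.801 Bhmt counts for each Gm5096 count after APAP, and 0.81, 0.829 and 0.9 after saline. Gm5096 had a log2 fold change of -1.55 (SE 0.52, edgeR adjusted p = 0.124), and the sum of both had -1.59 (SE 0.55, adjusted p = 0.132). The levels of Ahcy and Bhmt are uncertain to this extent, whereas Mat1a, Gnmt, Cth, Cdo1 and Csad shared no such word with another gene.

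**Figure D2:**
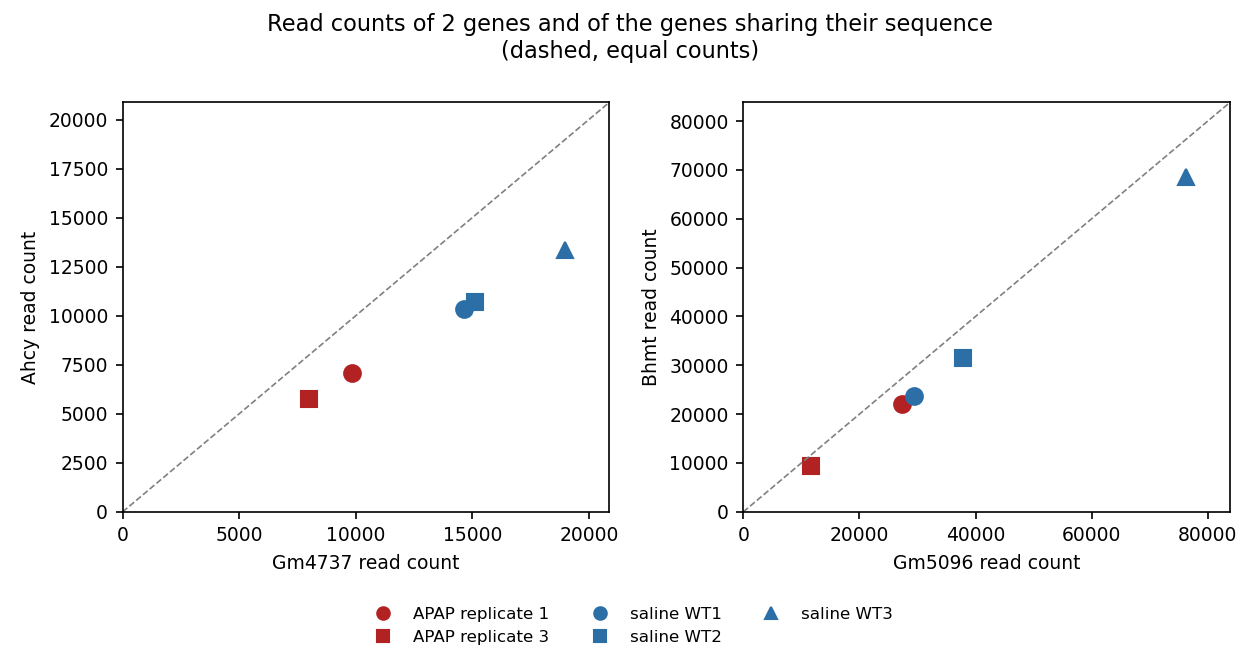
Read counts of Ahcy against Gm4737 and of Bhmt against Gm5096, linear axes, 1 point per library, with the dashed line at equal counts. All points lay below the dashed line. Those of Ahcy lay along 1 slope, with 0.703 to 0.723 Ahcy counts per Gm4737 count. Bhmt counts per Gm5096 count ran from 0.801 to 0.829 in APAP replicates 1 and 3, WT1 and WT2, and were 0.9 in WT3.

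Cbs encodes cystathionine beta-synthase, which joins homocysteine to serine and commits its sulfur to cysteine (ENSMUSG00000024039, chr17:31612623-31637199, minus strand). It was at 160.5 and 224 CPM after APAP and at 709, 622 and 592 CPM after saline. The lowest saline library was 2.64 times the highest APAP library. Cbs fell 3.33-fold by the means (log2 fold change -1.74, SE 0.28, edgeR adjusted p = 0.0187), with means of 641 ± 60.8 CPM after saline (SD, n = 3) and 192 ± 45.1 CPM after APAP (SD, n = 2). Leaving out APAP replicate 1, APAP replicate 3 or WT2 ended the call (adjusted p = 0.129, 0.0564 and 0.0883), with log2 fold changes between -1.997 and -1.51.

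Cth encodes cystathionine gamma-lyase, which releases cysteine from cystathionine (ENSMUSG00000028179, chr3:157894248-157925077, minus strand). It had the largest fall of the 10 genes. It was at 74.4 and 75.3 CPM after APAP, from 1266 and 1218 counts, and at 1203, 1261 and 1435 CPM after saline, from 13417, 18987 and 21484 counts. The APAP libraries were nearly equal, and the lowest saline library was 15.97 times the highest APAP library. Cth fell 17.4-fold by the means, to 5.76% of the saline level (log2 fold change -4.12, SE 0.30, 95% interval -4.84 to -3.40, edgeR adjusted p = 0.00183). It passed in all 14 alternative fits, with log2 fold changes between -4.16 and -3.73.

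Cdo1 encodes cysteine dioxygenase, which oxidises cysteine to cysteine sulfinate and so takes it away from glutathione (ENSMUSG00000033022, chr18:46713205-46728342, minus strand). It was at 1967 and 1438 CPM after APAP and at 3607, 2908 and 2607 CPM after saline. Both APAP libraries were below all saline libraries, by a smaller margin than for the genes that passed. The mean after APAP was 56.0% of that after saline, and the log2 fold change of -0.84 (SE 0.33, 95% interval -1.63 to -0.05) did not pass after adjustment (edgeR adjusted p = 0.179).

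Csad encodes cysteine sulfinic acid decarboxylase, the next enzyme on the way to taurine (ENSMUSG00000023044, chr15:102176998-102189043, minus strand). It was at 14.9 and 44.4 CPM after APAP, from 254 and 719 counts, and at 392, 412 and 404 CPM after saline. The saline libraries were nearly equal, while the APAP libraries differed about 3-fold from each other. Csad fell 13.6-fold by the means, to 7.37% of the saline level (log2 fold change -3.76, SE 0.51, 95% interval -4.97 to -2.55, edgeR adjusted p = 0.0112). Leaving out APAP replicate 1 gave a log2 fold change of -3.18 and leaving out APAP replicate 3 one of -4.75, and the call was lost without WT2 (adjusted p = 0.0576). Exons of Csad overlap those of Zfp740 on the opposite strand by 278 bases, and the strand setting of the counting was not given in the sources used here. Zfp740 was at 34.3 and 35.6 CPM after APAP and between 32.4 and 43.5 CPM after saline, and its part in the low Csad counts of the APAP libraries was not tested.

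Cysteine release by Cth and cysteine oxidation by Cdo1 were compared in the same way. Per kilobase of exon, there were 0.0223 and 0.0308 Cth reads for each Cdo1 read after APAP, against 0.196, 0.256 and 0.324 after saline. The Cth to Cdo1 ratio was 9.67-fold lower after APAP (log2 difference -3.27, SD 0.33 after APAP and 0.36 after saline, exact two-sided permutation p = 0.2, the smallest possible).

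Cdo1 and Csad, the first and next steps of taurine synthesis, gave the third ratio. For each Csad read there were 307 and 75.4 Cdo1 reads per kilobase after APAP, and 21.4, 16.4 and 15.02 after saline. The Cdo1 to Csad ratio was 8.73-fold higher after APAP (log2 difference 3.13, SD 1.43 after APAP and 0.27 after saline, exact two-sided permutation p = 0.2, the smallest possible). Its size rested on which APAP library was used, with a log2 difference of 2.11 without replicate 1 and 4.14 without replicate 3.

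**Figure D3:**
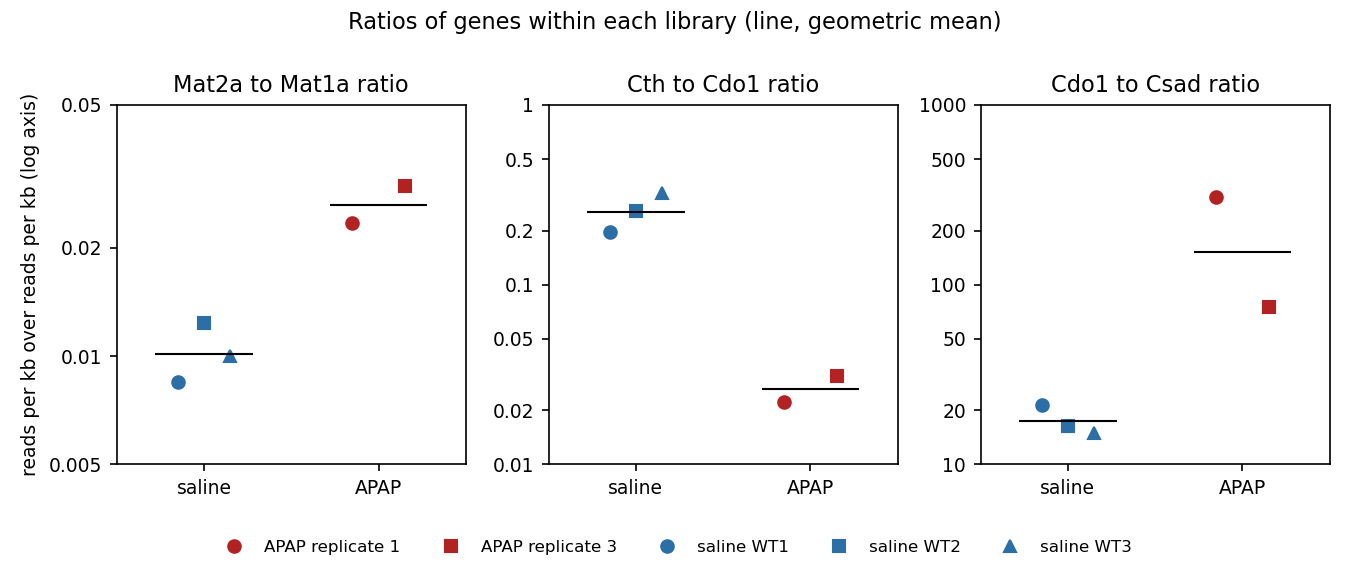
Ratios of reads per kilobase of exon between 2 genes within each library (log axes), with a line at the geometric mean of each group. The groups did not overlap in any of the 3 ratios, with log2 differences of 1.38, -3.27 and 3.13 between APAP and saline.

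Gss encodes glutathione synthetase, which adds glycine in the last step of glutathione synthesis (ENSMUSG00000027610, chr2:155563181-155592810, minus strand). It was at 69.8 and 128 CPM after APAP and at 79.0, 62.5 and 63.9 CPM after saline. APAP replicate 3 was above all other libraries, and APAP replicate 1 lay within the saline range. The log2 fold change was 0.53 (SE 0.30, 95% interval -0.17 to 1.23, edgeR adjusted p = 0.323). Its size turned on the APAP library used, with 0.03 without replicate 3 and 0.90 without replicate 1. In the latter setting, and with library size only (0.90), Gss was higher at the study's thresholds. Gss exons overlap those of Acss2 on the opposite strand by 395 bases. Acss2 had a log2 fold change of -2.20 (edgeR adjusted p = 0.0404).

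The glutathione step before Gss is made by Gclc and Gclm, the catalytic and modifier subunits of glutamate-cysteine ligase. Gclc was at 694 and 943 CPM after APAP and at 438, 565 and 317 CPM after saline. The groups did not overlap, yet the log2 fold change of 0.90 (SE 0.32) did not pass after adjustment (edgeR adjusted p = 0.148). Gclm was at 130 and 161 CPM after APAP and at 330, 175 and 140 CPM after saline, so the groups overlapped (log2 fold change -0.56, SE 0.40, adjusted p = 0.434).

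**Figure D4:**
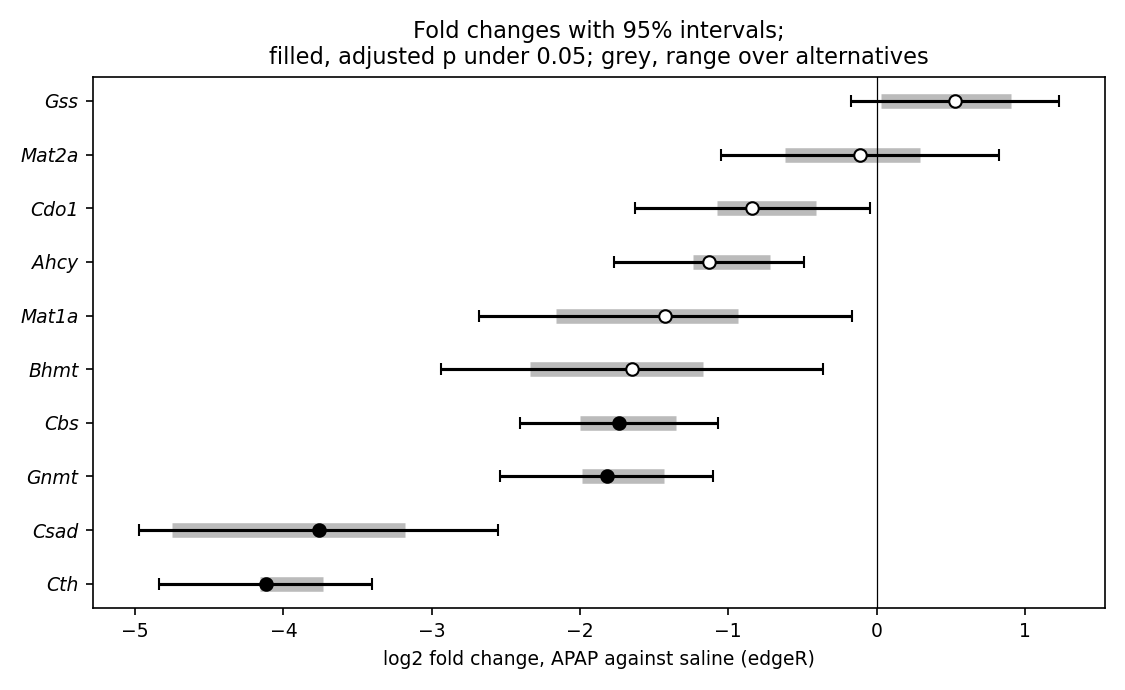
Log2 fold changes of the 10 genes (edgeR, APAP against saline) with 95% intervals, filled where the adjusted p was under 0.05. Grey bars span the alternative fits. Cth (-4.12) and Csad (-3.76) stood apart from the other 8 genes, whose values ran from -1.82 to 0.53.

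Levels of different genes are compared per kilobase of exon. After saline the highest were Mat1a (mean 1985 CPM per kb), Cdo1 (1849) and Gnmt (1537), and their ranges overlapped. Mat1a was first by the mean through WT3 (2861, against 1586 for Cdo1). Cdo1 was above Mat1a in WT1 (2194 against 1592) and WT2 (1769 against 1503). Bhmt (509.5) and Cth (466) followed, with overlapping ranges, and then Ahcy (301), Csad (105) and Cbs (85.6), whose ranges did not overlap with their neighbours. With the longest coding transcript as the length, the saline ranges of Bhmt (837.7 to 1841) and Cth (662.6 to 790.8) did not overlap. Reads counted for Gm4737 and Gm5096 are left out here. They outnumbered those of Ahcy and Bhmt in every library, so the places of Ahcy and Bhmt in this order are uncertain. Mat2a (20.2) and Gss (11.6) were lowest, and their order turned when the longest coding transcript was used as the length. After APAP the order began with Cdo1 (1035) and Mat1a (740.2), and Csad moved from rank 7 to rank 10, at 3.90 and 11.6 CPM per kb in its 2 libraries. Cth moved from rank 5 to rank 6 (26.8 CPM per kb), close to Cbs (25.7). With the longest coding transcript as the length Cth was at rank 7 after APAP (41.2), below Gss (50.3) and above Cbs (30.9).

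Promoter sequences, the 250 bases before the RefSeq start (GRCm38.p6), were matched for 7 of the 10 genes and not for Mat1a, Cth and Cdo1. Those of Gnmt, Cbs and Csad are shown because these 3 genes fell after APAP and had a matched promoter. They lie at chr17:46729166-46729415, chr17:31637206-31637455 and chr15:102189044-102189293, all on the minus strand, and are written 5′ to 3′ on that strand. Capitals mark a match to a searched motif.
Gnmt: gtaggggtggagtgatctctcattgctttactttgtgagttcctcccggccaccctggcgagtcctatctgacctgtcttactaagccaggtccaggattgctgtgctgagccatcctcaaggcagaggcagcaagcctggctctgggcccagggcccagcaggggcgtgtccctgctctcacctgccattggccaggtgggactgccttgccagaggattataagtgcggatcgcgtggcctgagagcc
Cbs: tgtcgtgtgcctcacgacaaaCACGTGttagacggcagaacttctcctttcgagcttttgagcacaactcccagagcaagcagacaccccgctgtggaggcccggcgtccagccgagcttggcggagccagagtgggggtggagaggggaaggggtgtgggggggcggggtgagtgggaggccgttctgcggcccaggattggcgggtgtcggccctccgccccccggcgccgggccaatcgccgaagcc
Csad: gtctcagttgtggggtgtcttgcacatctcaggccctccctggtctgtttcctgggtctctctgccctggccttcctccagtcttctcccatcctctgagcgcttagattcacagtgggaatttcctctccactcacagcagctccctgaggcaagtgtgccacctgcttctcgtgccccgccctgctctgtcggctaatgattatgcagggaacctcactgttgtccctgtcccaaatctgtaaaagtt

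A total of 4 motifs was searched on both strands, namely CACGTG (an E-box), TGATGNAA (an ATF4-type element), TGACNNNGC (the core of the antioxidant response element) and the heat shock element of 3 alternating units. The Cbs promoter held CACGTG from 229 bases before the start, and Gnmt and Csad held none of the 4. Of 32851 RefSeq promoters of this length, 6.02% held CACGTG, 3.45% TGATGNAA, 10.2% TGACNNNGC and 0.47% the heat shock element. The Ahcy promoter held the heat shock element from 13 bases before its start. Their G and C content was 60.4% for Gnmt, 68.0% for Cbs and 55.6% for Csad.

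The other genes of these pathways were taken from 8 lists with 69 genes, of which 65 were tested. Of these 6 rose and 7 fell (3.70% and 3.53% of all genes), and the median log2 fold change was -0.08. In the methionine cycle list 2 of 13 fell, and 2 of 8 SAM-consuming methyltransferases fell. Of 7 genes of cysteine oxidation and sulfide disposal tested, 2 fell. In the lists of methionine salvage and polyamines (10 genes) and of cystine, cysteine and methionine transport (11 genes tested), 2 and 3 genes rose and 0 fell. Of the 10 genes tested for the gamma-glutamyl cycle 1 fell, and of 4 for glutathione reduction and import 1 rose.

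Slc7a11, the light chain of the cystine transporter, had the largest rise. It had 715 and 285 counts after APAP and 1, 0 and 0 counts after saline. It rose with an edgeR adjusted p of 0.00194. The pooled counts, 1000 against 1, gave a ratio of 1240 per scaled library size (exact 95% interval 222 to 49000, counting error only), and APAP replicate 3 alone gave 725 (129 to 28800). Slc7a11 was at or near 0 in every saline library, whereas Cth was at 5.76% of its saline level in the libraries where Slc7a11 was high.

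Transporters Slc43a2, which carries large neutral amino acids such as methionine, and Slc1a4, a neutral amino acid exchanger, also rose. Slc43a2 was at 14.0 and 2.97 CPM after APAP and at 0.807, 1.13 and 1.27 CPM after saline (log2 fold change 2.97, SE 0.65, edgeR adjusted p = 0.0439). Its value was 1.46 without APAP replicate 1 (adjusted p = 0.318), and the call was also lost without WT1, WT2 or WT3 (adjusted p = 0.116, 0.152 and 0.0804). Slc1a4 was at 12.2 and 19.2 CPM after APAP and at 5.20, 4.45 and 3.14 CPM after saline (log2 fold change 1.88, SE 0.33, adjusted p = 0.0238). Odc1, ornithine decarboxylase of polyamine synthesis, was at 203 and 156 CPM after APAP and at 55.4, 41.9 and 52.6 CPM after saline (log2 fold change 1.85, SE 0.23, adjusted p = 0.00908).

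Among the genes that fell was Inmt, indolethylamine N-methyltransferase, which uses SAM. It was at 25.4 and 23.6 CPM after APAP and at 532, 361 and 132 CPM after saline (log2 fold change -3.80, SE 0.62, edgeR adjusted p = 0.0191). Sardh oxidises sarcosine, the product of Gnmt. It was at 148 and 161 CPM after APAP and at 1060, 826 and 540.1 CPM after saline (log2 fold change -2.39, SE 0.37, adjusted p = 0.0162). Ethe1 and Suox act in sulfide and sulfite oxidation. Ethe1 was at 15.04 and 17.4 CPM after APAP against 95.6, 72.2 and 36.5 CPM after saline, and Suox at 30.6 and 40.4 CPM against 171, 125 and 121 CPM (log2 fold changes -2.07 and -1.97, SE 0.42 and 0.28, adjusted p = 0.0354 and 0.0125).

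The other 5 genes that passed are named here after their values were seen. Gsr, glutathione reductase, and Srm, spermidine synthase, rose (log2 fold changes 1.30 and 1.01), and Dmgdh, Hnmt and Ggt6 fell (-1.67, -1.81 and -1.71). Of all 13 genes, Slc7a11 alone passed without APAP replicate 1, and again it alone passed without WT2. Without APAP replicate 3 the calls of Slc7a11, Slc43a2, Odc1 and Suox remained, and 9 of the 13 remained without WT1.

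**Figure D5:**
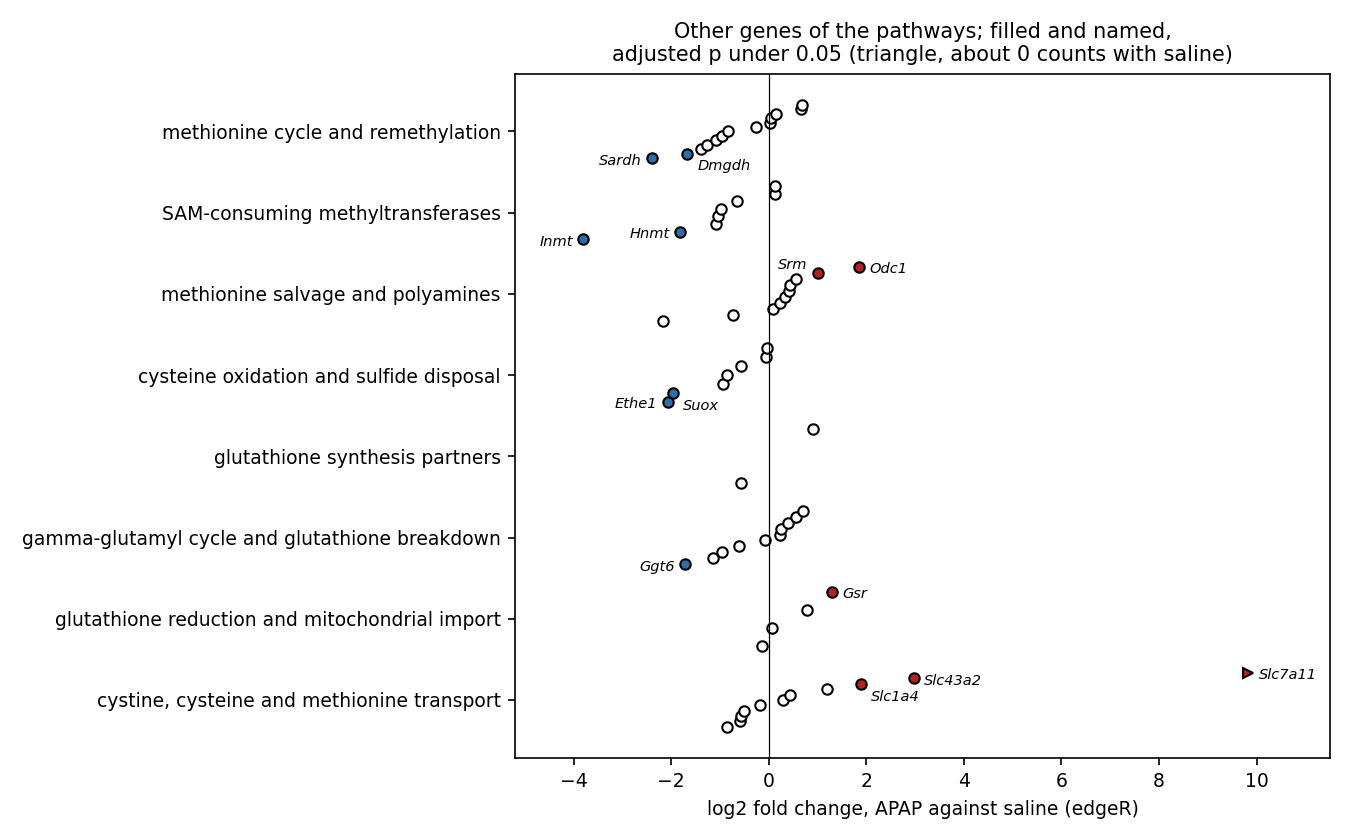
Log2 fold changes (edgeR, APAP against saline) of the 65 other pathway genes tested, 1 row per list, named and filled where the adjusted p was under 0.05. The triangle marks Slc7a11, whose saline counts were 1, 0 and 0, so that its fitted position depends on the prior count. Among those named 6 lay to the right of 0 and 7 to the left.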

How the data were processed

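The authors counted reads per gene with HISAT2, per the study's methods, and the submitters' processing notes name builds GRCm38 and mm10. The deposited count table holds raw counts of 34745 genes in 5 libraries, and its 5 FPKM columns were not used. Strand setting and annotation release are not given in the sources used here. Columns named WT were taken as saline, since the labels give all samples the genotype WT and the other columns are named for APAP. They carry no saline number. Depth ranged from 13378445 to 15976339 counts, and floors of 3 counts cover counting error only.

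Counts were fitted with edgeR 4.0.16 in R 4.3.3 (TMM, filterByExpr with a minimum count of 10 and a minimum total of 15, quasi-likelihood test, Benjamini-Hochberg over 13734 genes). The common dispersion was 0.111. Alternatives were DESeq2 1.42.0, other tests, scalings and filters, and each library left out. Ratios of counts per kilobase within libraries were compared by exact two-sided permutation. Exon lengths, overlaps and shared words of 50 bases came from GENCODE M21 (GRCm38), which held 34344 of the gene identifiers, 27759 with identical coordinates. Promoters came from RefSeq.

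The genes named were all 10 members, the 8 with the largest absolute log2 fold change among the pathway genes past an adjusted p of 0.05, and Gclc and Gclm. Members and lists were chosen with earlier results of these data known. Of the cell type lists, 0 of 6 Kupffer cell, 0 of 6 sinusoidal endothelial and 0 of 6 stellate cell markers passed after adjustment. Over all genes 7.23% passed after adjustment and 23.5% passed the study's thresholds, in either direction. At the study's thresholds 1 of 6 passed in each list, a share no higher than that of all genes. Marco and Lyve1 were higher and Ecm1 was lower after APAP (log2 fold changes 2.49, 1.28 and -0.84).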

Additional observations from a re-analysis of the deposited data

How the results depend on the processing

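Of the 10 genes, 4 passed an adjusted p of 0.05 with edgeR's quasi-likelihood test and 8 with DESeq2, which added Mat1a, Ahcy, Bhmt and Cdo1. Over all genes 993 passed, against 1835 with the likelihood ratio test, 1776 with the exact test and 2093 with DESeq2. Of the other pathway genes 13 passed, against 21 with DESeq2. Leaving out 1 library gave 1 to 4 of the 10 genes at the adjusted threshold (1 without WT2, 2 without either APAP library), 5 to 9 at the study's thresholds (5 without APAP replicate 3, where Mat1a, Bhmt and Cdo1 were lost), 164 to 890 of all genes and 1 to 13 of the pathway genes. A lone APAP library was then assumed to vary like the saline libraries. The log2 fold change of Mat2a changed sign to 0.29 with library size only, 0.27 without APAP replicate 3 and 0.22 without WT3, and was -0.62 without APAP replicate 1. Library size only moved the median log2 fold change of all genes from 0.03 to 0.42 and the share of calls that were higher from 51.2% to 77.8%. With it 5 of the 10 genes were lower and Gss was higher at the study's thresholds, and Mat1a, Bhmt and Cdo1 were lost. The TMM factors were 1.274 and 1.091 for the APAP libraries, and 0.7828, 0.9801 and 0.9376 for WT1, WT2 and WT3. Over 14 alternatives the adjusted p ran from 4.36e-92 to 0.0191 for Cth, from 2.17e-15 to 0.0576 for Csad, from 2.81e-12 to 0.136 for Gnmt and from 1.15e-09 to 0.129 for Cbs. Summing Ahcy and Bhmt with their copies was chosen after seeing the data. No paired analysis was possible because the saline columns carry no sample number that the labels share.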
